A study of Mus musculus with 23 samples.

Results

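Glycolysis was followed through 10 genes, *Hk1*, *Hk2*, *Pfkl*, *Aldoa*, *Tpi1*, *Gapdh*, *Pgk1*, *Eno1*, *Eno2* and *Ldha*, taken by symbol from the 23284 genes of the expression table. Of these, *Gapdh* is also the reference gene of the study, which scaled each gene to *Gapdh* within a cell when it compared sequencing with qPCR. The study also divided lineage genes by *Gapdh*, among them 1 transcription factor for each lineage in all 16 mMSCs and their population control. The data comprised 16 individually sequenced mouse bone marrow mesenchymal stem cells (mMSC1 to mMSC16), 5 individual HL-1 cardiomyocytes (HL1cm1 to HL1cm5) and 1 population control (PC) of each cell type, made from bulk cells and carried in parallel (mMSC-PC and HL1cm-PC). The mMSCs were bought, came from male mice of 3 months and were used at passages 6 to 11. HL1cm is a single immortal line of atrial origin, used here at passages 70 to 85. All libraries carry the strain label C57BL/6J. The 2 cell types were grown in different media, alpha-MEM for mMSCs and Claycomb medium with norepinephrine for HL1cm. The captured HL1cm cells also carried a green cytoplasmic dye, so cell type, medium and dye cannot be told apart. No separate cultures are named for either type, so each was treated as 1 sample, no p-value was computed, and an SD over cells is the spread within that culture.

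In glycolysis, hexokinase phosphorylates glucose, phosphofructokinase commits it to the pathway, aldolase splits the 6-carbon sugar, and triose phosphate isomerase interconverts the 3-carbon products. *Gapdh*, *Pgk1*, phosphoglycerate mutase, enolase and pyruvate kinase carry these to pyruvate with a gain of ATP, and lactate dehydrogenase returns NADH to NAD+. Several steps have isoforms with tissue preference, such as *Eno2* in neurons and *Eno3* in muscle, and many of the genes are textbook targets of the hypoxia-inducible factor HIF-1. *Gapdh* is widely used as a reference gene, which presumes a level that varies little between cells.

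The cell types carried their labelled identity. The summed FPKM of 8 mesenchymal markers was 980 to 6456 in mMSCs and 0 to 7.61 in HL1cm cells, although *Thy1* was listed at 0 in every mMSC. The sum of 9 cardiomyocyte markers was 32780 to 59987 in HL1cm cells and 0 to 65.4 in mMSCs. Between 5178 and 7241 genes reached 1 FPKM in an mMSC, 6428 to 7010 in an HL1cm cell, 9625 in mMSC-PC and 9881 in HL1cm-PC. FPKM counts fragments in relation to exon length and to all mapped fragments of the library, so levels of different genes are compared per length. On the log2 scale values under 1 FPKM were set to 1.

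Across the 16 mMSCs the median FPKM was highest for *Pgk1* (930), followed by *Aldoa* (637), *Hk2* (499), *Ldha* (339), *Tpi1* (288), *Gapdh* (202) and *Eno1* (155). *Pfkl* (11.1) and *Hk1* (9.99) were far lower, and *Eno2* had a median of 0. In HL1cm cells the order was *Aldoa* (1111), *Ldha* (920), *Tpi1* (471), *Pgk1* (331), *Eno1* (308), *Gapdh* (237), *Hk2* (88.1), *Pfkl* (14.2), *Hk1* (13.3) and *Eno2* (0). Neighbours in the mMSC order overlapped in their ranges over cells. In both cell types 5 members had a higher median than *Gapdh*. In all, 7 of the 10 reached 1 FPKM in every mMSC, the exceptions being *Pfkl*, *Eno1* and *Eno2*, and all 10 reached it in at least 2 of the 21 cells.

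**Figure D1:**
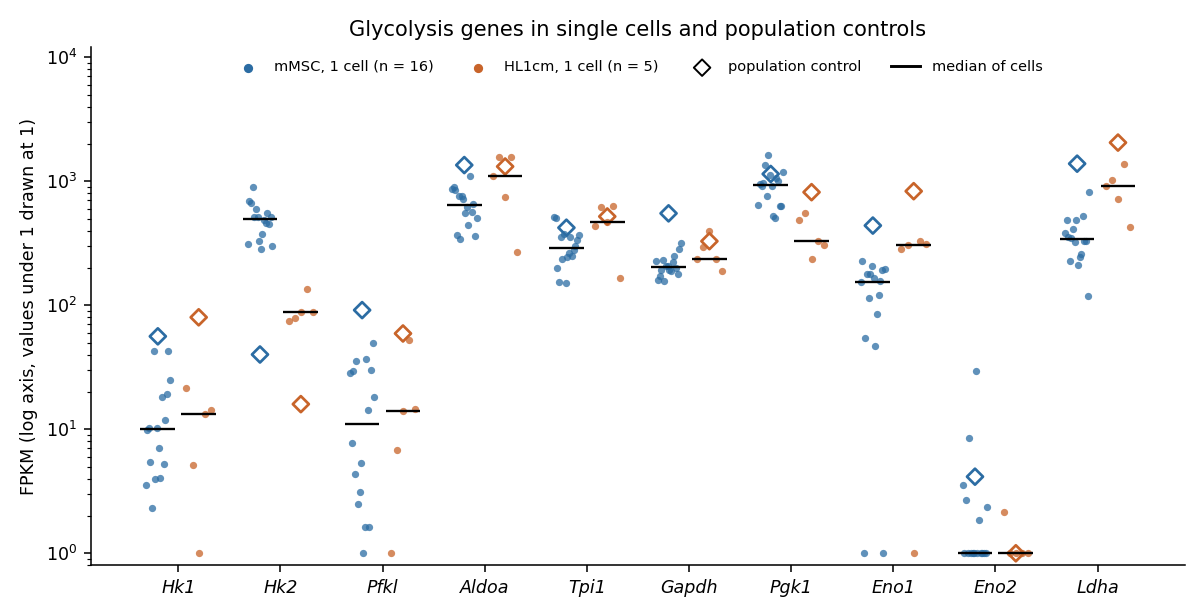
FPKM (log axis) of the 10 glycolysis genes in 16 mMSCs (blue points), 5 HL1cm cells (orange points) and the 2 population controls (diamonds), with the median of the cells as a black line. *Hk2* is the gene whose mMSC points all lie above its HL1cm points, and its diamonds lie below all cells of the same type.

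The hexokinases gave the largest contrast. *Hk2* (chr6:82725025-82774454, GRCm38), the inducible isoform, ranged from 283 FPKM in mMSC9 through a median of 499 to 890 in mMSC4. In HL1cm cells it read 74.7, 79.6, 88.1, 135 and 88.8 FPKM. Every mMSC was above every HL1cm cell, and the mean log2 FPKM was 8.88 ± 0.47 (SD, n = 16 cells) against 6.51 ± 0.33 (SD, n = 5 cells), a difference of 2.37 or 5.18-fold. The difference was 2.08 to 2.71 under the other scalings, but with every library at the same FPKM sum the ranges met, since mMSC1 then lay below HL1cm4. *Hk1* (chr10:62268855-62379920), the constitutive isoform, lay between 2.31 and 42.8 FPKM in mMSCs with a median of 9.99. In HL1cm cells it was 21.6, 5.11, 0, 13.3 and 14.2 FPKM, so the ranges overlapped and the log2 difference of 0.39 was within the spread (SD 1.27 and 1.77). *Hk2* therefore made up a median of 98.2% (92.3 to 99.6%) of the 2 hexokinases in single mMSCs and 91.1% (77.6 to 100%) in single HL1cm cells.

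The genes of the next steps did not separate the cell types. *Pfkl* (chr10:77986947-78009807), the liver-type phosphofructokinase, ran from 0 in mMSC9 through 11.1 to 49.2 FPKM in mMSC15, and from 0 to 52.4 FPKM in HL1cm cells. Its SD in mMSCs was 1.90 on the log2 scale. *Aldoa* (chr7:126795234-126800994), the main aldolase outside liver, was 341 to 1099 FPKM in mMSCs and 268 to 1563 in HL1cm cells, a log2 difference of -0.53 (SD 0.51 and 1.06). *Tpi1* (chr6:124810586-124814158) was 151 to 517 FPKM in mMSCs and 165 to 636 in HL1cm cells, a log2 difference of -0.55 (SD 0.52 and 0.79). The lowest HL1cm cell for both *Aldoa* and *Tpi1* was HL1cm5, and the differences did not exceed the spread between HL1cm cells.

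*Gapdh* (chr6:125161852-125166467) was the most even of the 10 genes in mMSCs. It ranged from 157 FPKM in mMSC6 through a median of 202 to 319 in mMSC16, a 2.04-fold range, and read 236.6, 294, 395, 236.2 and 190 FPKM in HL1cm1 to HL1cm5. Over mMSCs the mean log2 FPKM was 7.70 ± 0.29 (SD, n = 16 cells), and over HL1cm cells 8.03 ± 0.40 (SD, n = 5 cells). The difference of -0.34 was smaller than the SD in HL1cm and the ranges overlapped widely. The size of this difference rested on the scaling of the libraries, and no scaling gave a clear difference in the other direction. It was 0.0038 when every library was brought to the same FPKM sum, -0.50 with the sum over genes of at least 200 bases and -0.63 with median-of-ratios factors. The median over all genes moved from 0.084 to 0.23, 0.0023 and -0.063. Without HL1cm3, the HL1cm cell with the highest *Gapdh*, the *Gapdh* difference was -0.19.

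Reads of *Gapdh* can also arise from copies of the gene. In GENCODE M21, 73 other genes hold a stretch of at least 500 bases with at least 95% identity to the longest *Gapdh* transcript (1420 bases), and 69 of them are annotated as pseudogenes. Of all windows of 75 bases in that transcript, the read length used, 80.3% occur without mismatch in another annotated gene. The corresponding shares were 67.5% for *Pgk1*, 65.4% for *Eno1*, 5.23% for *Ldha*, 2.48% for *Tpi1*, 1.49% for *Aldoa* and 0 for *Hk1*, *Hk2*, *Pfkl* and *Eno2*. These shares are for single windows. The libraries held read pairs, and the share of pairs that fit more than 1 gene can be smaller and was not tested. Among the *Gapdh* copies with a row in the table, *Gm12070* was above 0 in 15 of 16 mMSCs with a median of 11.5 FPKM and a maximum of 33.2. *Gm5069* was above 0 in 3 mMSCs with a maximum of 1.39 FPKM. The listed copies held 0.482% (mMSC13) to 13% (mMSC9) of the FPKM of *Gapdh* plus these copies in mMSCs, 0 to 6.94% in HL1cm cells, 9.77% in mMSC-PC and 11.3% in HL1cm-PC. Copies without a row in the table were not tested.

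*Pgk1* (chrX:106187100-106203699), the kinase of the first ATP-yielding step, was higher in mMSCs. It ranged from 503 FPKM in mMSC11 through 930 to 1633 in mMSC7, against 486, 555, 236, 331 and 304 FPKM in HL1cm1 to HL1cm5. The mean log2 FPKM differed by 1.27 or 2.41-fold (SD 0.49 and 0.51), and by 0.97 with median-of-ratios factors. The ranges met only at their edges, since HL1cm2 lay above mMSC10 (522 FPKM) and mMSC11. Without HL1cm2 they did not overlap, and then 2 of the 10 genes, *Hk2* and *Pgk1*, had separate ranges.

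Enolase, which makes phosphoenolpyruvate, is encoded by *Eno1* (chr4:150236708-150248879) in most tissues. In 14 mMSCs *Eno1* lay between 47.1 FPKM (mMSC10) and 227 (mMSC2), but in mMSC3 and mMSC15 it was only 0.0351 and 0.0211 FPKM. In HL1cm it read 282, 308, 327 and 313 FPKM in 4 cells and 0.0138 in HL1cm3. The 3 cells with *Eno1* near 0 were not without enolase reads: *Gm5506*, also called *Eno1b*, a near-identical copy of *Eno1* annotated with a coding sequence of its own, read 147 FPKM in mMSC3, 45.6 in mMSC15 and 81.1 in HL1cm3. In the other mMSCs *Gm5506* was 6.04 to 48.3 FPKM. Its share of *Eno1* plus *Gm5506* had a median of 13.6% over mMSCs and was 99.98% in mMSC3 and HL1cm3 and 99.95% in mMSC15.

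The coding sequences of both genes show how little tells them apart. Over 1305 coding bases they differ at 8 positions (99.4% identity), and 900 of 1231 coding windows of 75 bases (73.1%) are the same in both. The stretch of *Eno1* with the densest differences, coding bases 667 to 816 from exons 7 and 8 of 12, which lie on the plus strand between chr4:150245337-150246718 with an intron in between, is shown with the *Eno1* base in capitals at the 4 positions where *Gm5506* differs.
Eno1: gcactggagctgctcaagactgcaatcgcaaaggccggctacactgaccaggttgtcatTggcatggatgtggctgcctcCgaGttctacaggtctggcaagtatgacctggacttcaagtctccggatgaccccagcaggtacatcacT
Reads across these capitals tell the genes apart, whereas a read from an identical window fits either gene unless its mate covers a difference. The split of FPKM between *Eno1* and *Gm5506* is therefore uncertain in every library. Summed, the 2 rows gave 45.6 to 264 FPKM in mMSCs, with no cell near 0, and 81.1 to 363 in HL1cm cells. The SD between mMSCs was 2.51 on the log2 scale for *Eno1* alone and 0.76 for the sum. The log2 difference of *Eno1* alone between cell types was -0.41 (SD 2.51 and 3.70). Without HL1cm3 the *Eno1* ranges did not overlap and the gene was lower in mMSCs, and 2 of the 10 genes then had separate ranges and 4 had a mean log2 difference of at least 1.

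*Eno2* (chr6:124760053-124769673), the neuronal enolase, which is on the neurogenic list of the study, was above 0 in 6 of 16 mMSCs, 37.5% (exact 95% interval 15.2 to 64.6%, counting error only). It read 29.3 FPKM in mMSC9, 8.49 in mMSC5, 3.57 in mMSC1, 2.71 in mMSC3, 2.37 in mMSC16 and 1.86 in mMSC11, 4.15 in mMSC-PC, 2.14 in HL1cm1 and 0 in HL1cm-PC and the other HL1cm cells. These values correspond to an estimated 1.29 to 8.46 read pairs per positive mMSC, so a 0 in the other cells is not shown to be absence at this depth. mMSC9, among the mMSCs with the fewest aligned pairs, held an estimated 6.13 read pairs of *Eno2*, fewer than the 8.46 of mMSC5. *Tbp*, a general transcription factor, was above 0 in 13 of 16 mMSCs. Of *Eno1*, *Eno2* and *Eno3* together, *Eno2* contributed at most 10.9% in a single mMSC (mMSC9) and 0.787% in mMSC-PC. Of 8 neuronal markers 6 were at 0 in every mMSC, among them *Rbfox3*, *Nefl* and *Syp*, and their sum never exceeded 1.30 FPKM. *Eno3*, the muscle enolase, was the more abundant alternative: it was above 0 in 12 of 16 mMSCs with a median of 62.7 and a maximum of 209 FPKM, exceeded *Eno1* in 5 mMSCs but *Eno1* plus *Gm5506* in 3, and lay between 87.0 and 438 FPKM in HL1cm cells.

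**Figure D2:**
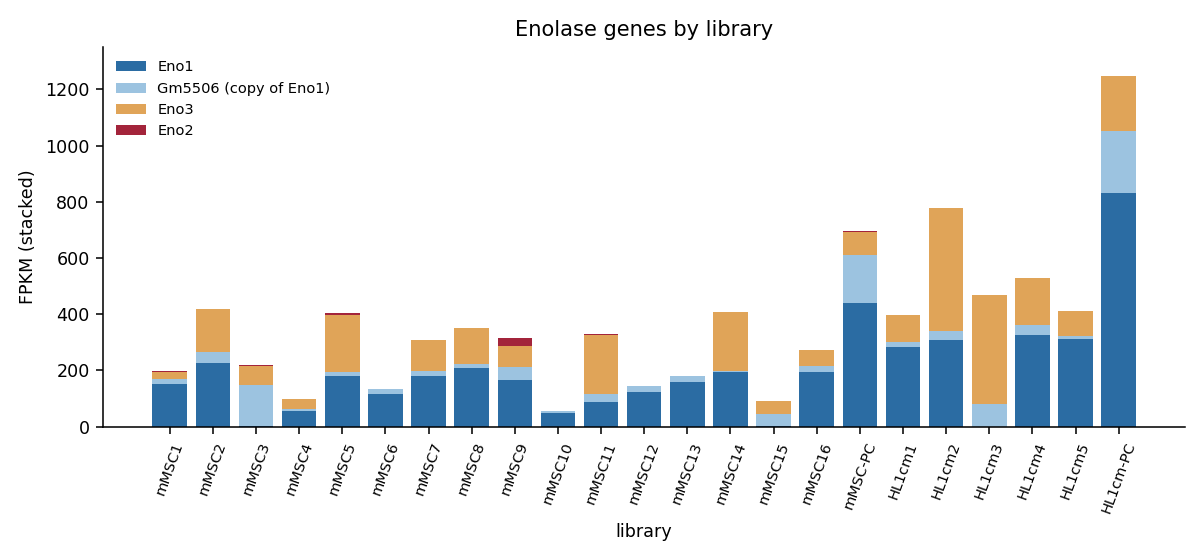
Stacked FPKM of *Eno1*, its copy *Gm5506*, *Eno3* and *Eno2* in each of the 23 libraries. In mMSC3, mMSC15 and HL1cm3 the *Eno1* segment is missing and the *Gm5506* segment is present, and the *Eno2* segment is visible mainly in mMSC9 (29.3 FPKM).

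*Ldha* (chr7:46842274-46855627), the lactate-forming dehydrogenase subunit, was the 1 member at least 2-fold higher in HL1cm. It ranged from 119 FPKM in mMSC15 through 339 to 811 in mMSC16, against 920, 1027, 720, 1371 and 428 FPKM in HL1cm1 to HL1cm5. The mean log2 difference was -1.32, that is 2.49-fold higher in HL1cm (SD 0.64 and 0.63), and -0.98 with every library at the same FPKM sum. The ranges overlapped in that mMSC2, mMSC8, mMSC12 and mMSC16 exceeded HL1cm5, and mMSC16 also HL1cm3. *Ldhb*, the heart-type subunit, made up a median of 38.1% (27.0 to 44.4%) of both subunits in HL1cm cells and 10.1% (0 to 60.8%) in mMSCs.

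Counted over the 10 genes, the ranges of 1 gene (*Hk2*) were separate with mMSCs higher and of 0 genes with mMSCs lower, where 2.19% and 1.77% of the 11850 genes that passed the filter (1 FPKM in 2 or more cells) did so. A mean log2 difference of at least 1 was reached by 2 genes higher in mMSCs (*Hk2* and *Pgk1*) and 1 lower (*Ldha*), beside 21.4% and 21.6% of all genes tested, so these shares of the 10 genes were close to those of the background. The median difference of the 10 genes was -0.20, against 0.084 over all genes. The mean over the 9 genes other than *Gapdh* was 0.20 (a mean of 6.43 ± 0.39, SD, over the 16 mMSCs and 6.24 ± 0.72, SD, over the 5 HL1cm cells), opposite in sign to *Gapdh* and within the spread, and it was -0.084 without HL1cm3 and -0.051 with median-of-ratios factors. Division by *Gapdh* changed these counts in 1 case: *Ldha* went from -1.32 to -0.98 and no longer reached 1 in size.

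Whether *Gapdh* follows its pathway was asked over the 16 mMSCs. Pearson's r of log2 *Gapdh* with the mean log2 of the 9 other genes was 0.25 and Spearman's rho 0.26. Without mMSC15 and mMSC16, the 2 cells farthest from the median *Gapdh*, r was 0.30 and rho 0.31 over 14 cells. The value depended on single cells, being 0.48 without mMSC15 and 0.012 without mMSC16. With only the 6 other genes that every mMSC held at 1 FPKM or above, r was 0.049 and rho -0.15, and r became -0.34 without mMSC15 and mMSC16. The scaling of the libraries moved r further, to 0.70 over the 9 genes when every library was brought to the same FPKM sum, against 0.27 with the sum over genes of at least 200 bases and 0.24 with median-of-ratios factors. These are descriptions over cells of 1 culture that share the FPKM scaling and the library preparation.

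**Figure D3:**
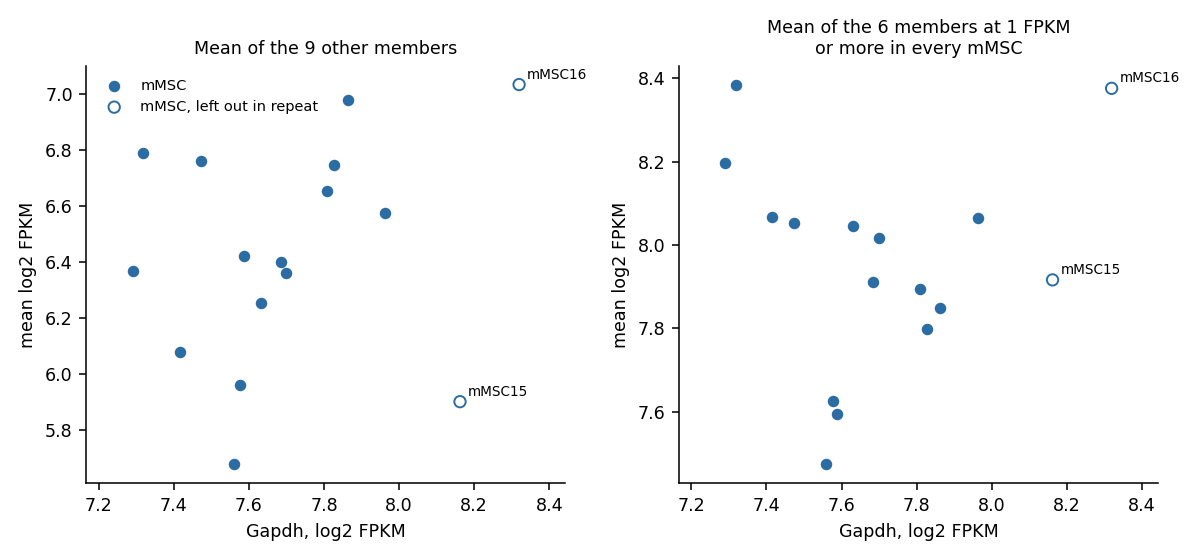
Each point is 1 mMSC, with log2 FPKM of *Gapdh* on the horizontal axis and the mean log2 FPKM of the 9 other genes (left) or of the 6 genes detected in every mMSC (right) on the vertical axis. The cloud rises weakly on the left (r = 0.25) and has no slope on the right (r = 0.049). Open circles mark mMSC15 and mMSC16.

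Gene by gene, r with *Gapdh* was positive for 6 of 9 genes and reached 0.3 for 1, *Pfkl* (0.45). It was 0.27 for *Tpi1*, 0.13 for *Pgk1*, 0.11 for *Eno2*, 0.069 for *Hk1*, 0.042 for *Ldha*, -0.070 for *Aldoa*, -0.089 for *Eno1* and -0.44 for *Hk2*. The median of the 9 was 0.069. Over the 2142 other genes that reached 1 FPKM in each mMSC the median r with *Gapdh* was -0.0075, with quartiles of -0.20 and 0.19. Of the 6 glycolysis genes in this set, 4 lay between these quartiles. Ranked by r, *Tpi1* stood at place 358, *Pgk1* 684, *Hk1* 855, *Ldha* 919, *Aldoa* 1265 and *Hk2* 2007. Among the genes most like *Gapdh* were *Atp2a2*, the calcium pump of the endoplasmic reticulum (r = 0.83, and 0.78 without mMSC15 and mMSC16), *Rnf181* (0.67 and 0.57), *Mrps16* (0.67 and 0.51) and *Rps14* (0.66 and 0.47), all picked for the size of r among 2142 genes and none of them in the glycolysis list.

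The other genes of the pathway did not follow each other closely either. Among the 6 genes detected in every mMSC the 15 values of r had a median of -0.053, from -0.62 for *Hk1* and *Aldoa* to 0.46 for *Aldoa* and *Ldha*. Among all 9 the median of 36 values was 0.065, against -0.0012 for pairs of all genes detected in every mMSC. *Ldha* had r of 0.53 with *Eno1*, 0.46 with *Aldoa* and 0.44 with *Pgk1*, and mMSC15 was both the cell of lowest *Ldha* and 1 of the 2 mMSCs with *Eno1* near 0. The mean of 11 HIF targets outside the pathway had r of -0.12 with *Gapdh*, 0.52 with the mean of the 6 detected genes and -0.040 with the mean of all 9. By gene it ran from -0.67 for *Eno2* to 0.50 for *Ldha*, with 0.28 for *Hk1*, 0.15 for *Hk2*, 0.13 for *Pgk1* and values between -0.092 and 0.056 for *Tpi1*, *Pfkl*, *Eno1* and *Aldoa*. The mean of 14 cell cycle genes had r of -0.068 with *Gapdh* and 0.28 with the 9 genes.

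**Figure D4:**
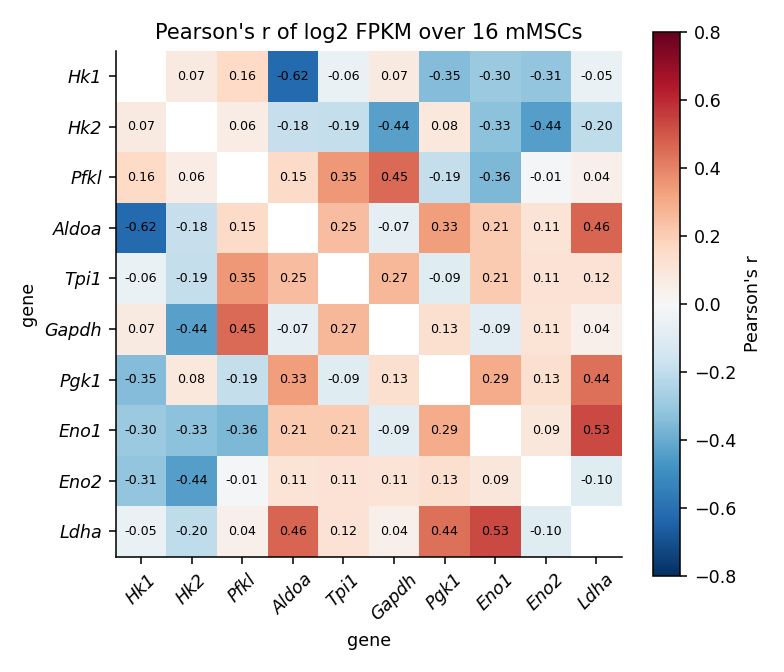
Pearson's r of log2 FPKM over 16 mMSCs for each pair of the 10 genes, from blue (negative) to red (positive). The *Gapdh* row runs from -0.44 (*Hk2*) to 0.45 (*Pfkl*), and the square farthest from 0 is *Hk1* with *Aldoa* (-0.62).

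In spread, *Gapdh* stood apart from its pathway. Its SD of 0.29 between mMSCs ranked 12 among 2143 genes detected in every mMSC, where the median SD was 0.86, and the 6 other glycolysis genes detected in every mMSC had a median SD of 0.51. With every library at the same FPKM sum the *Gapdh* SD was 0.58, at rank 50, and the median SD 1.08. Among the common reference genes *Ppia* (0.26) had a smaller SD, *Rpl13a* (0.33), *Ywhaz* (0.42) and *B2m* (0.47) followed, and *Actb* (0.65) and *Hprt* (0.84) were less even. *Sdha*, *Tbp* and *Gusb*, each at 0 in some mMSCs, had SDs of 1.43 to 2.00. An estimated 20.5 to 130 read pairs (median 87.1) stood behind a *Gapdh* value, and counting them alone gives an SD of 0.17. For *Hk2* the counting SD was 0.064 against an observed 0.47, for *Pgk1* 0.077 against 0.49, for *Aldoa* 0.10 against 0.51, for *Tpi1* 0.14 against 0.52 and for *Ldha* 0.13 against 0.64. *Gapdh* had r of -0.40 with the log2 number of aligned read pairs, whose part in its spread was not tested.

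Division by *Gapdh* lowered the SD between mMSCs for 2 of the 9 other genes, *Pfkl* from 1.90 to 1.79 and *Eno2* by less than 0.01. Neither of these was detected in every mMSC. Of the 6 members that were, the SD fell for 0, beside 25.7% of all genes detected in every mMSC. A fall depends on the SD of the gene itself as well as on its r with *Gapdh*. The 6 members had a median SD of 0.51 against 0.86 over all these genes, so the 2 shares do not compare r alone. The SD rose from 0.47 to 0.65 for *Hk2*, from 0.51 to 0.60 for *Aldoa*, from 0.64 to 0.69 for *Ldha* and from 0.49 to 0.53 for *Pgk1*, and *Tpi1* kept 0.52. The count rested on single cells: it was 5 without mMSC15, 4 without mMSC12, 3 without mMSC14, and 1 without mMSC1, mMSC4, mMSC10, mMSC13 or mMSC16. When every library was first brought to the same FPKM sum, it was 7 of 9. That sum ran from 630240 to 2529613 FPKM over mMSCs, and 11.0 to 76.6% of it lay in genes shorter than 200 bases or without a known length. With the sum over genes of at least 200 bases the count was 2, and with median-of-ratios factors it was 1.

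**Figure D5:**
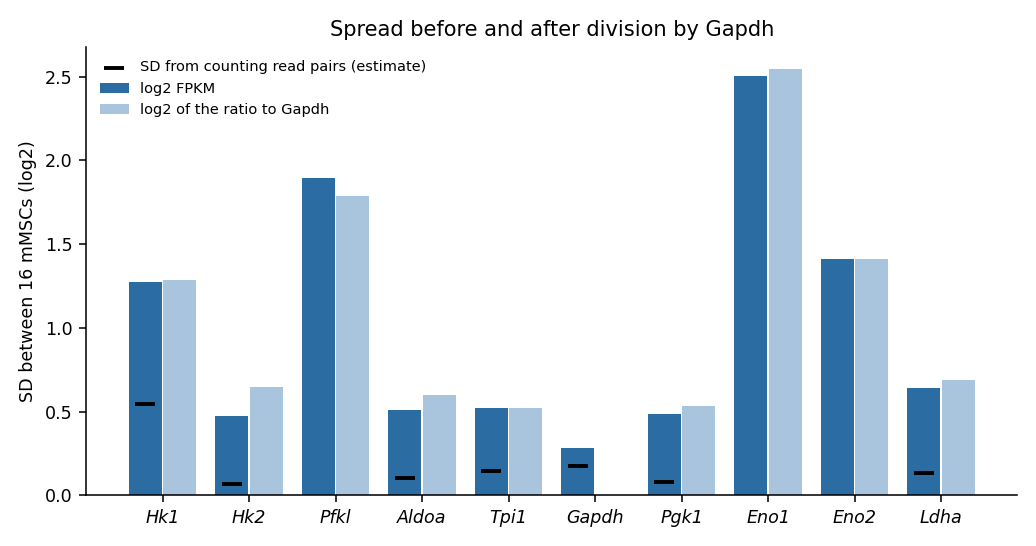
SD of log2 FPKM between 16 mMSCs for each gene (dark bars) and of log2 of its ratio to *Gapdh* (light bars), with the SD expected from counting the estimated read pairs (black marks) for genes that reached 1 FPKM in each mMSC. *Gapdh* has the shortest bar (0.29), and for most other genes the light bar is as tall as or taller than the dark one.

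In both population controls *Hk2* was far below the single cells and *Hk1* above them. mMSC-PC held 40.1 FPKM of *Hk2*, below all 16 mMSCs and 12.4-fold below their mean, and HL1cm-PC held 15.9, below all 5 HL1cm cells and 5.85-fold below their mean. On the log2 scale these differences were -3.63 and -2.55, at percentiles 0.972 and 2.87 of all genes tested, and they ran from -3.73 to -3.26 and from -3.05 to -2.11 under the other scalings. *Hk1* went the other way in both controls, at 56.1 FPKM in mMSC-PC (4.05-fold the mean cell) and 79.9 in HL1cm-PC (7.38-fold), each above every cell of its type. The *Hk2* share of the 2 hexokinases was therefore 41.7% in mMSC-PC and 16.6% in HL1cm-PC, below every single cell. Each control is 1 library, and in it fewer cells of a type and less RNA per cell cannot be told apart. The chip took cells of 17 to 25 micrometres, so selection by size and the use of single-cell input cannot be told apart in this contrast.

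Most other glycolysis genes were higher in mMSC-PC than in single mMSCs. The control exceeded every mMSC for 6 of 10 genes (*Hk1*, *Pfkl*, *Aldoa*, *Gapdh*, *Eno1* and *Ldha*), beside 9.11% of 11215 genes, and lay below every mMSC for 1 (*Hk2*), beside 2.05%. HL1cm-PC exceeded every HL1cm cell for 5 of 10 (*Hk1*, *Pfkl*, *Pgk1*, *Eno1* and *Ldha*), beside 31.3% of 9455 genes, and lay below every one for 1 (*Hk2*), beside 2.89%. The largest positive differences of mMSC-PC from the mean cell, on the log2 scale, were 2.45 for *Pfkl* (91.3 FPKM), 2.02 for *Hk1*, 1.92 for *Ldha* (1385 FPKM) and 1.76 for *Eno1* (439 FPKM). The median log2 difference of the 10 genes was 1.22 in mMSC-PC, against 0.014 over all genes, and 0.71 in HL1cm-PC, against 0.63. The all-gene median in mMSC-PC became 0.47 when libraries were brought to the same FPKM sum, and the count of 6 genes did not change under any of the 3 other scalings.

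*Gapdh* itself stood at 551 FPKM in mMSC-PC, 2.60-fold the mean mMSC and 1.38 on the log2 scale, and at 328 FPKM in HL1cm-PC, a log2 difference of 0.28. The second difference turned to -0.24 with median-of-ratios factors and -0.13 with the sum over genes of at least 200 bases, while the first stayed between 1.30 and 1.87. Among the reference genes *Actb* (0.032), *Ppia* (0.10), *Rpl13a* (0.17) and *B2m* (0.21) were near the mean mMSC in mMSC-PC, and *Ywhaz* was lower (-1.11). A ratio to *Gapdh* in mMSC-PC is thus lowered 2.60-fold against one in the mean mMSC for a gene of equal FPKM.

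The 26 other genes of the pathway were described by counts. Of these 18 reached 1 FPKM in at least 2 cells and 5 were at 0 in all 23 libraries, among them *Hk3*, a hexokinase isoform. Beside the all-gene shares of 2.19% and 1.77%, the ranges of 1 were separate in each direction. The gene with mMSCs higher was *Pkm2*, pyruvate kinase, at 434 to 1100 FPKM against 52.4 to 400. The gene with mMSCs lower was *Pgam2*, the muscle mutase, at 0 to 301 FPKM against 329 to 1332, with only 3 mMSCs at 1 FPKM or more. A mean log2 difference of at least 1 was found for 3 higher in mMSCs (the glucose transporter *Slc2a1*, *Pfkfb4* and *Pkm2*) and 9 lower, beside 21.4% and 21.6% of all genes tested. Each of these was among the 18 genes that passed the filter, so 18 and not 26 is the number to set beside these shares. *Slc2a1* and *Pfkfb4* were at 0 in every HL1cm cell and passed the filter through the mMSCs, and *Slc2a1* read 36.1 FPKM in HL1cm-PC beside 49.5 in mMSC-PC. Among the 9 lower, *Slc2a4* was at 0 in every mMSC and passed through 2 HL1cm cells. *Aldoc* was above 0 in 1 mMSC and 4 HL1cm cells. *Gpi1*, which makes fructose 6-phosphate, was 16.6 to 226 FPKM in mMSCs and 215 to 637 in HL1cm cells, and *Pgam1* was 65.2 to 436 and 188 to 356. mMSC-PC exceeded every mMSC for 6 of the 26 genes and was below every mMSC for 0, beside 9.11% and 2.05%. All these shares are over genes that passed the filter, which not all of the 26 did. *Pkm2* was 3794 FPKM in mMSC-PC, 4.98-fold the mean mMSC.

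By position, 4 of the 10 genes lie on chromosome 6, with *Eno2* and *Tpi1* 40.9 kb apart and *Tpi1* and *Gapdh* 348 kb apart. Over mMSCs r was 0.11 between *Eno2* and *Tpi1* and 0.27 between *Tpi1* and *Gapdh*.

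The sequence before the start site was searched for ACGTG and GCGTG, both forms of the RCGTG core (R being A or G) bound by HIF-1. Both strands were read in the first RefSeq window of each gene (250 bases upstream, GRCm38.p6). *Hk1* and *Ldha* have 2 such windows and *Aldoa* and *Eno1* have 3, and their other windows were not searched. In these genes the bases after the start of the searched window were not found in the longest transcript. ACGTG was found in 3 of the 10 genes, *Hk2* (2 matches), *Pgk1* (2) and *Ldha* (5, where a CACGTG counts on each strand), beside 16.6% of 32851 windows of all genes. GCGTG was found in 3, *Pfkl* (1), *Gapdh* (2) and *Eno1* (1), beside 28.2% of windows, and 4 genes held neither in the window searched. The 3 genes with ACGTG in the window searched were those with a mean log2 difference of at least 1 between cell types. This overlap was not tested. *Hk2* and *Pgk1* were higher in mMSCs and *Ldha* in HL1cm. That set changed with the settings, since *Ldha* left it with every library at the same FPKM sum (-0.98), *Pgk1* left it with median-of-ratios factors (0.97), and *Eno1*, without ACGTG, joined it without HL1cm3. The windows of *Hk2*, *Pgk1* and *Ldha* are shown with that of *Gapdh*, with ACGTG or its reverse complement CACGT in capitals, at chr6:82774455-82774704 (minus), chrX:106186850-106187099 (plus), chr7:46845554-46845803 (plus, 1 of 2 annotated windows) and chr6:125165774-125166023 (minus). GCGTG is not marked, so the 2 GCGTG matches of *Gapdh* stay in lower case. The windows of *Ldha* and *Gapdh* lie within the spans given above for these genes.
Hk2: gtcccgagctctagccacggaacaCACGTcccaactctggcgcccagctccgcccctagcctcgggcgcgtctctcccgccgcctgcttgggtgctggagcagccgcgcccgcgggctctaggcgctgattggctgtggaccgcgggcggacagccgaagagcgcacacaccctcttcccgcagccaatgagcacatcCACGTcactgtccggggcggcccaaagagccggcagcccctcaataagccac
Pgk1: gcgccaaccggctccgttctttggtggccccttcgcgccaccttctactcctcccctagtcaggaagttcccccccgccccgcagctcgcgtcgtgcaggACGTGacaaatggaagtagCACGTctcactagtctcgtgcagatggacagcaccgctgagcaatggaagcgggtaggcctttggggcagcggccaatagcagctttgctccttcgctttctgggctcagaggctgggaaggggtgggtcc
Ldha: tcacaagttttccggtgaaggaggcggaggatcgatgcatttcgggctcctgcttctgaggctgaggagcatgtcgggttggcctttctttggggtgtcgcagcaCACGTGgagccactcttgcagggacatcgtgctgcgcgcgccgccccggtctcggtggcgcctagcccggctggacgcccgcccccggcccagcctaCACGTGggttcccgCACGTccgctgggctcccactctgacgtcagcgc
Gapdh: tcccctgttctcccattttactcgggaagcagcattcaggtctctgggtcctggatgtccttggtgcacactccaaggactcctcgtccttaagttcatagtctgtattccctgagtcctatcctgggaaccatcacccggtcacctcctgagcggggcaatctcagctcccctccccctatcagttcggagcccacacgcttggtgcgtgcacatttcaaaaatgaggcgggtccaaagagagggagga
A match describes the letters in the window and is not evidence of binding.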

How the data were processed

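Expression was measured by RNA-seq in 23 libraries, from 16 single mMSCs, 5 single HL1cm cells and 1 population control of each. Capture of mMSCs and HL1cm took place on 1 Fluidigm C1 chip (17 to 25 micrometres), with SMARTer cDNA, Nextera XT libraries and 75-base read pairs. FPKM were made by the authors with Tophat 2.0.12 on mm10 and Cufflinks 2.2.1 (default options), and the deposited FPKM were used unchanged. How reads matching several genes were assigned is not given in the sources used here beyond the default options.

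Before log2 was taken, 1 FPKM was the lower limit of every value. The deposited table gives no counts, so read pairs behind a value were estimated from FPKM, the longest protein-coding transcript in GENCODE M21 and the aligned read pairs of the study, and the counting SD is the root mean of 1 over these pairs, on the log2 scale. These are approximations, and PCR copies are not independent molecules. Genes that reached 1 FPKM in 2 or more of the libraries compared (single cells between cell types, cells and their control otherwise) formed the background of counts, and a difference of mean log2 of at least 1 was called. Population controls were set against the log2 of the mean cell. Samples were grouped by their labels. No test was run, since each cell type is 1 sample. Genes copied elsewhere were sought among GENCODE M21 transcripts, and the positions and windows before start sites are from RefSeq, GRCm38.p6, in which all 10 genes matched by symbol. No 2 libraries held identical values.

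The 10 genes, the gene lists and the reference genes were chosen with earlier results of these data known. The text names the 10 genes, the isoforms of these, other common reference genes, *Gpi1*, *Pgam1* and *Pkm2*, and genes from the 5 of highest r with *Gapdh*. Some genes that this rule names are not reported here. *Gm5506*, *Gm12070*, *Gm5069*, *Slc2a1*, *Slc2a4* and *Pfkfb4* were named after their values were seen. Scipy 1.17.1, matplotlib 3.10.9, pandas 2.3.3 and numpy 2.4.6 were used in Python 3.11.15, and the scripts were tested on simulated data. Alternatives changed the log scale, the library scaling, the cells included, the coefficient and the filter.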

Additional observations from a re-analysis of the deposited data

Results flagged for a closer look

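Among 11 measures examined over the 5 HL1cm cells, 3 had a cell set apart by Dixon's ratio, the gap to the nearest cell over the whole range, where chance sets apart about 1 in 20. *Eno1* in HL1cm3 had a ratio of 0.975 on log2 FPKM, at 0.0138 FPKM beside 282 to 327 in the other 4 cells, and the sum of *Eno1* and *Gm5506* in that cell was 81.1 FPKM. *Tpi1* in HL1cm5 had a ratio of 0.724, at 165 FPKM beside 438 to 636 in the others, and *Aldoa* was also lowest in that cell (268 FPKM). *Eno2* in HL1cm1 had a ratio of 1, which holds by construction where 1 cell is above 0 (2.14 FPKM) and the others are at 0, so that ratio is no comparison with chance.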

How the results depend on the processing

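Of 247 recomputed values, 230 stayed within a set limit, 16 moved further and 1 reversed. The limit was the spread between cells, or 1.5 times for counts, background shares and the SD. For r it was an approximate standard error from the number of mMSCs. A change of sign counted as reversed only where the main value exceeded its limit. The mean difference of the 9 others, 0.20, was therefore not counted at -0.084 without HL1cm3 or at -0.051 with median-of-ratios factors. The reversal was the *Gapdh* difference between cell types, 0.0038 with every library at the same FPKM sum in place of -0.34, and it was -0.63 with median-of-ratios factors. At 0.0038 the difference was lost rather than turned into a clear one in the other direction. The same-sum scaling also gave 0 genes with separate ranges in place of 1 (for *Hk2* mMSC1 then fell below HL1cm4), r of 0.70 in place of 0.25, a *Gapdh* SD of 0.58 in place of 0.29, and 7 genes with a lower SD after division by *Gapdh* in place of 2. Median-of-ratios factors gave 1 such gene, and leaving out both mMSC9 and mMSC15, the cells with the fewest aligned pairs, gave 5. Leaving out 1 cell at a time gave 1 to 5 such genes, 1 to 2 genes with separate ranges, 3 to 4 genes with a difference of at least 1, a *Gapdh* difference of -0.45 to -0.19, a mean difference of the 9 others of -0.084 to 0.40, an r of 0.012 to 0.48 and a *Gapdh* SD of 0.24 to 0.30. The number of genes higher in mMSC-PC than in every mMSC stayed 6 throughout these settings, the median *Hk2* share 97.9 to 98.5% and the median *Eno2* share 0 when 1 cell was left out. Summing *Eno1* with *Gm5506* was chosen after seeing the data, and its 7 values did not move beyond these limits, with r of 0.30. No paired analysis was possible because the results come from no test and the shared numbers only name separate cells. FPKM without counts limit the precision of *Hk1*, *Pfkl* and *Eno2*, whose values rest on few estimated read pairs.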
